A study of Mus musculus with 24 samples.

Results

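The comparison described here is 6 h against 3 h of retinoic acid (RA) in UTX-AID mouse embryonic stem cells (ESCs), the second 3 h of the RA response in this line. It rests on 8 of the 24 RNA-seq libraries of the series, 4 libraries a side, taken by their labels for the line and the hours of RA. At each time 2 libraries came from cells without indole-3-acetic acid (−IAA) and 2 from cells with it (+IAA). The other 16 libraries are the UTX-AID cells before RA and the same design in BAP1-AID ESCs, and they are used here only for reference. UTX-AID cells carry a hemagglutinin and auxin-inducible degron (HA-AID) tag at the N terminus of UTX, the histone H3K27 demethylase encoded by Kdm6a, and stably overexpress TIR1, the adaptor through which the auxin IAA sends a tagged protein to the proteasome. The −IAA cells carry the same tag and TIR1, so all 8 libraries share them, and no parental line is part of the comparison. Cells of the +IAA arm had IAA for 2 h before RA. RA was given without leukemia inhibitory factor (LIF), whereas the cells before RA were in serum with LIF, so hours of RA and hours without LIF cannot be told apart. Nothing in the labels says that the replicates came from separate cultures, and the p-values measure the spread between these libraries only.

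Total counts of the 8 libraries ran from 42018795 to 54034789, and 3 counts, taken as the smallest detectable amount, correspond to 0.0555 to 0.0714 CPM, the count scaled to the size of its library. This floor covers counting error only. All 7 ESC markers were above 1 CPM, Pou5f1, Nanog and Zfp42 among them, and their summed level was 3748 to 4064 CPM at 3 h and 3759 to 3930 CPM at 6 h. Of 7 feeder fibroblast markers, Lum and Postn were at 0 in every library, and the sum was 2.49 to 6.47 CPM at 3 h and 2.48 to 4.28 CPM at 6 h. The 7 primitive endoderm markers summed to 2.35 to 3.93 CPM and 2.97 to 4.32 CPM, the 7 trophoblast markers to 13.2 to 19.2 CPM and 14.5 to 15.9 CPM, and the 7 markers of 2-cell-like cells to 10.9 to 21.3 CPM and 11.7 to 16.4 CPM. None of these ranges separated the times. Kdm6a itself was at 93.3 to 113 CPM at 3 h and 106 to 117 CPM at 6 h (0.11 ± 0.045, adjusted p = 0.336). The degron acts on the protein, so this RNA level is no check of the depletion.

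RA is made from vitamin A in a pair of oxidation steps and acts by binding retinoic acid receptors (RARs), which sit on DNA as heterodimers with retinoid X receptors and exchange corepressors for coactivators when the ligand arrives. In ESCs the first genes to respond include those that break RA down again and the genes at the 3′ ends of the Hox clusters, which hold Polycomb marks before induction. Loss of LIF together with RA leads ESCs out of the pluripotent state, a passage in which the factors of the naive and formative states are switched off over hours to days.

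Between 3 h and 6 h, 124 of 15908 genes tested were higher (0.779%) and 177 were lower (1.11%), or 301 in all (1.89%), in edgeR's quasi-likelihood test with the IAA arm as a covariate and Benjamini-Hochberg adjustment. These genes are referred to below as having risen or fallen, or as called, and these shares are the reference for every list count below. With the study's additional cutoff of an absolute log2 fold change above 1, 13 were higher (0.0817%) and 8 lower (0.0503%). The steps were small. The median log2 fold change was 0.42 among the 124 and −0.37 among the 177, and 72 and 128 of them changed by less than 0.5, against a median of 0.00046 over all genes tested. For 101 of the 124 and 135 of the 177, every library of one time lay above every library of the other, which held for 2.72% of all tested genes in the higher and 3.35% in the lower direction. Leaving out 1 library gave 65 to 103 higher and 106 to 149 lower genes. The counts fell by more than 1.5 times in both directions without +IAA 3 h replicate 1 (73 and 111), +IAA 3 h replicate 2 (78 and 110), +IAA 6 h replicate 2 (65 and 106) or −IAA 6 h replicate 2 (76 and 110), and in the lower direction without −IAA 6 h replicate 1 (112). The earlier step of the same cells, 3 h against 0 h, gave 846 genes higher and 428 lower of 15886 tested (5.33% and 2.69%). It shares the 3 h libraries with the step described here, so values of both are set side by side without any overlap being counted.

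**Figure D1:**
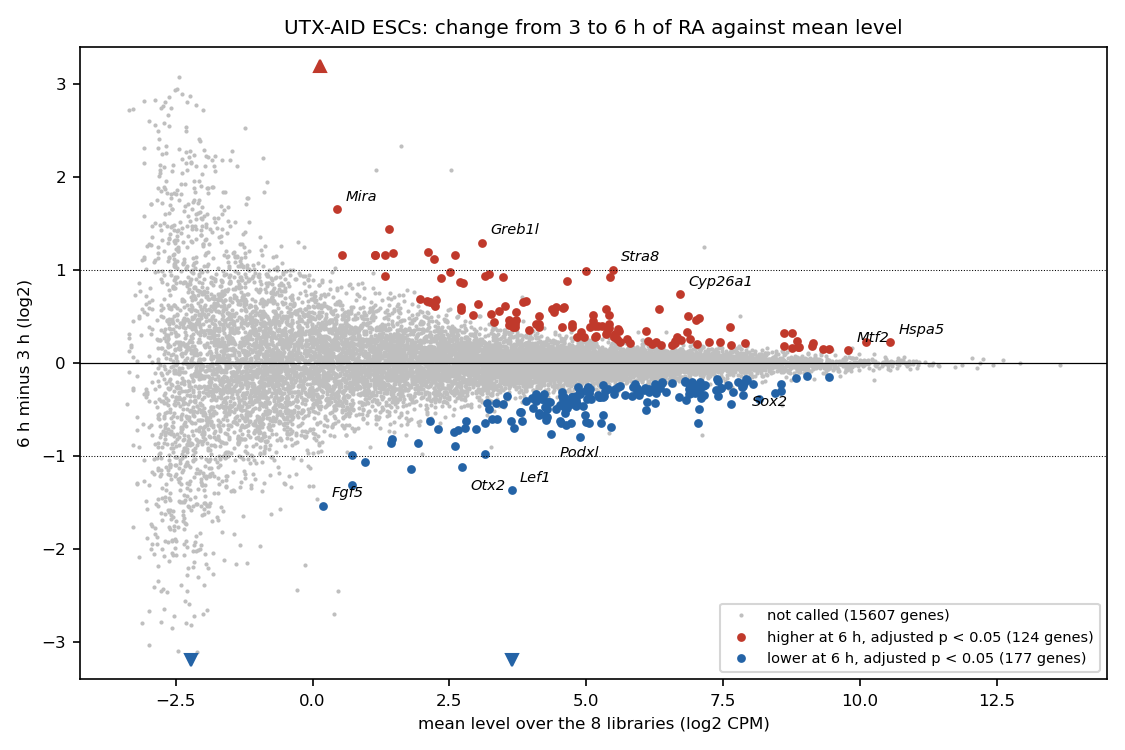
Change from 3 h to 6 h of RA in UTX-AID ESCs (y axis, log2) against the mean level over the 8 libraries (x axis, log2 CPM) for each tested gene. Red and blue points are the 124 genes higher and the 177 genes lower at 6 h, dotted lines mark a log2 change of 1 in either direction, 3 called genes beyond the axis are drawn as triangles at its edge, and uncalled genes beyond it are not drawn. Most called genes lie inside the dotted lines, and the detectable change narrows as the level increases.

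Genes that break down or bind retinoids continued to rise. Of 15 tested genes of RA breakdown, binding and synthesis, 4 rose, against 0.779% of all genes tested, and 0 fell. The list median was 0.39 on the log2 scale. Cyp26a1, the RA hydroxylase at chr19:37686241-37689984 (mm39), was at 0 to 0.904 CPM before RA. In −IAA replicates 1 and 2 and +IAA replicates 1 and 2, the order used throughout, it was at 69.03, 85.0, 79.1 and 75.02 CPM at 3 h and at 121, 128, 137 and 130.1 CPM at 6 h. All 6 h libraries lay above all 3 h libraries, and the difference was 0.74 ± 0.059 (SE), adjusted p = 1.02e-05. Its log2 change in the first 3 h was 7.07 (adjusted p = 5.19e-10), so the gain in the second 3 h was the smaller one. Cyp26b1, the second RA hydroxylase of the family, was at 3.74, 4.96, 2.72 and 3.299 CPM at 3 h and at 6.401, 10.2, 7.91 and 7.91 CPM at 6 h (1.16 ± 0.17, adjusted p = 0.00172). The groups again did not overlap. Dhrs3, which reduces retinal back to retinol and lies outside the naming rule, went from 10.2, 12.7, 10.6 and 10.7 CPM to 13.5, 13.9, 15.7 and 14.9 CPM (0.39 ± 0.094, adjusted p = 0.0470). The gain was small and without overlap between the times, and Dhrs3 kept its call only without −IAA 3 h replicate 2 (adjusted p up to 0.164).

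The promoters of the called genes, higher and lower, were searched for the direct repeats that RAR heterodimers are known to bind. The hexamers AGGTCA or AGTTCA or GGTTCA or GGGTCA were combined in pairs with 5 or 2 bases between them, on both strands, in windows from 250 bases before to 50 bases after the start site given by RefSeq (GRCm38.p6). With a spacing of 5, a repeat was found in 1 of the 95 higher genes that had a window (1.05%), in 0 of 122 lower genes, in 7 of 12437 tested genes (0.0563%) and in 31 of all 27025 windows (0.115%). The match is in Cyp26a1, at chr19:37697776-37697792 of GRCm38.p6, 32 to 16 bases before the start site, and reads on the strand opposite the gene as AGTTCA twinned across 5 bases. It is shown on the gene's strand with the repeat in capitals and 6 flanking bases on each side.
Cyp26a1: taaagaTGAACTTTGGGTGAACTaatttg
With a spacing of 2, 0 of the 95 higher and 1 of the 122 lower genes matched (0.82%), against 0.121% of tested genes, the lower one being Slc7a7. Letters in a window of this length describe that window only.

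**Figure D2:**
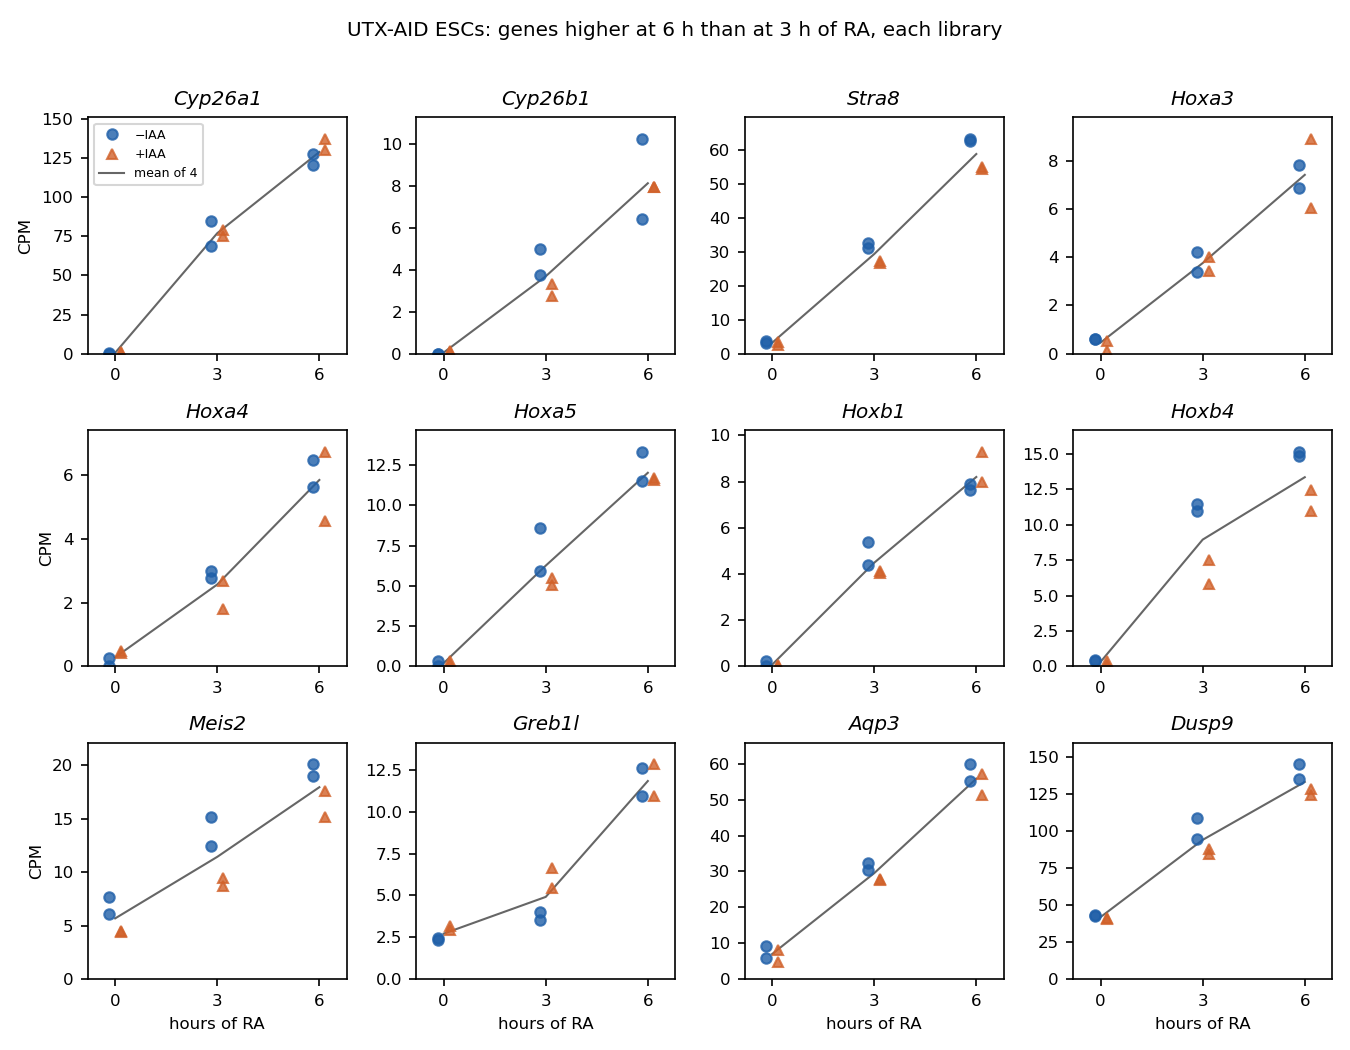
Level in CPM (y axis, starting at 0) at 0, 3 and 6 h of RA (x axis) for 12 genes higher at 6 h than at 3 h in UTX-AID ESCs. Blue circles are −IAA and orange triangles +IAA libraries, 2 of each per time, and the grey line joins the means of 4. Cyp26a1, Stra8, Hoxa5 and Aqp3 show no overlap between 3 h and 6 h, whereas Hoxb4 shows the −IAA libraries of 3 h at the level of the +IAA libraries of 6 h.

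Hoxa genes of the 3′ part of the cluster rose further. Of 11 tested Hoxa genes, 4 rose, against 0.779% of all genes tested, and 0 fell. The log2 fold change was above 0 for 10, and the median was 0.98. Hoxa3, at chr6:52146041-52190316, was at 3.395, 4.23, 3.41 and 3.995 CPM at 3 h and at 6.89, 7.84, 6.03 and 8.904 CPM at 6 h (0.98 ± 0.15 (SE), adjusted p = 0.00219). Hoxa4 was at 3.002, 2.78, 1.82 and 2.68 CPM and then at 6.47, 5.62, 4.56 and 6.74 CPM (1.20 ± 0.18, adjusted p = 0.00192). Hoxa5 was at 5.91, 8.58, 5.48 and 5.05 CPM and then at 11.5, 13.3, 11.6 and 11.7 CPM (0.96 ± 0.13, adjusted p = 9.35e-04). For these 3 genes every 6 h library was above every 3 h library, and each had been under 1 CPM before RA. Hoxa2 was low at both times (0.462 to 1.31 CPM and 1.32 to 2.05 CPM) and had a log2 difference of 1.03 ± 0.31, adjusted p = 0.139. The more 5′ genes Hoxa9 (1.59 to 2.31 CPM, then 2.13 to 3.51 CPM) and Hoxa10 (5.54 to 8.01 CPM, then 5.78 to 8.82 CPM), which pattern the posterior body, were at overlapping levels, with log2 differences of 0.29 ± 0.22 and 0.023 ± 0.16. Hoxa10 had been higher at 3 h than at 0 h (2.25, adjusted p = 1.07e-05). Mira, a long noncoding RNA of the Hoxa cluster that was looked at after its value was seen, went from 0.531, 0.674, 0.799 and 0.497 CPM to 2.01, 1.85, 2.15 and 1.901 CPM without overlap (1.65 ± 0.26, adjusted p = 0.00282). In mm39 the Hoxa3 gene model spans Hoxa4 and Hoxa5 on the same strand, so reads between these genes may have been split in the counting. In a fit of all 12 UTX-AID libraries Hoxa4 and Hoxa5 just missed the threshold (adjusted p = 0.0534 and 0.0567).

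The Hoxb cluster followed the Hoxa cluster in direction. All 10 Hoxb genes tested had a log2 fold change above 0, with a median of 0.81. Of them 3 rose, against 0.779% of all genes tested. Hoxb1, which specifies a hindbrain segment in the embryo, was at 4.39, 5.39, 4.12 and 4.05 CPM at 3 h and at 7.64, 7.9, 7.97 and 9.296 CPM at 6 h (0.87 ± 0.13 (SE), adjusted p = 0.00214). The groups did not overlap. Hoxb4 was at 11.5, 10.99, 7.48 and 5.84 CPM and then at 14.8, 15.2, 10.96 and 12.5 CPM (0.61 ± 0.11, adjusted p = 0.00984). The times overlapped, and the +IAA libraries were lower than the −IAA libraries at both. Hoxb3 was at 5.87, 6.39, 4.36 and 4.21 CPM and then at 7.395, 8.68, 6.64 and 7.77 CPM (0.57 ± 0.13, adjusted p = 0.0331). Its times were apart by a narrow margin. Among the uncalled members, Hoxb2 was at 5.57, 6.11, 3.94 and 2.32 CPM and then 6.203, 6.42, 5.65 and 7.23 CPM (0.57 ± 0.20, adjusted p = 0.240), and Hoxb5 at 3.303, 2.68, 2.09 and 1.51 CPM and then 3.78, 4.203, 4.34 and 3.76 CPM (0.79 ± 0.20, adjusted p = 0.0577). Hoxb3 kept its call only without −IAA 3 h replicate 1, −IAA 3 h replicate 2 or −IAA 6 h replicate 1 when 1 library was left out (adjusted p up to 0.126), and in the fit of 12 libraries Hoxb1 and Hoxb3 were not called (adjusted p = 0.117 and 0.312). Of 9 tested Hoxc and Hoxd genes 0 were called. Hoxd13, which patterns digits, was at 1.61 to 2.41 CPM and 1.94 to 3.42 CPM (0.33 ± 0.21, adjusted p = 0.620), and Hoxc13 at 0.254 to 1.06 CPM and 0.530 to 0.682 CPM (−0.12 ± 0.44, adjusted p = 0.971).

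Of the cofactors of Hox proteins, Meis2 rose, as did the caudal gene Cdx1. Of 11 TALE homeobox cofactors 2 rose, against 0.779% of all genes tested, and 0 fell, while the list median was −0.079. Meis2 was at 12.4, 15.2, 8.73 and 9.42 CPM at 3 h and at 19.01, 20.1, 15.1 and 17.6 CPM at 6 h (0.67 ± 0.10, adjusted p = 0.00196), with the lowest 6 h library level with the highest 3 h library. Cdx1, a regulator of anterior-posterior identity, was at 1.96, 1.39, 0.926 and 0.994 CPM and then 4.02, 3.31, 1.997 and 2.42 CPM (1.16 ± 0.20, adjusted p = 0.00621). It was the single member called among 15 tested Cdx, mesoderm and heart factors. In the fit of 12 libraries Cdx1 was not called (adjusted p = 0.0605).

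Calls among receptors and cofactors of RA went in both directions. Of 18 tested, 2 rose and 1 fell, against 0.779% and 1.11% of all genes tested, and the others were not called. Rara, the gene of RARα, had gone from 21.95 to 33.4 CPM before RA to 69.4, 74.8, 66.8 and 63.1 CPM at 3 h, and came down to 52.5, 55.2, 53.6 and 54.2 CPM at 6 h (−0.35 ± 0.053 (SE), adjusted p = 0.00245). All 6 h libraries lay below the 3 h and above the 0 h libraries. Nr6a1, an orphan nuclear receptor known to repress Pou5f1, was at 105, 109, 96.04 and 114 CPM and then at 147, 159, 133 and 147 CPM (0.47 ± 0.057, adjusted p = 4.08e-04), without overlap. Nrip1, a corepressor that binds RARs in the presence of ligand, went from 40.1, 44.7, 38.6 and 38.7 CPM to 48.4, 55.6, 45.01 and 51.9 CPM (0.31 ± 0.064, adjusted p = 0.0214). Its groups were close, 44.7 CPM being the highest 3 h and 45.0 CPM the lowest 6 h value, and the call was lost without +IAA 3 h replicate 1, +IAA 3 h replicate 2, +IAA 6 h replicate 2 and −IAA 6 h replicate 2 (adjusted p up to 0.106) and in the fit of 12 libraries (adjusted p = 0.0855). Among 18 tested orphan nuclear receptors and other early RA genes, Nr6a1, which is on both lists, rose, and Nr5a2 and Fgf15 fell. Fgf15, an FGF ligand, was at 30.3, 28.6, 27.03 and 33.5 CPM and then at 19.9, 14.2, 20.9 and 20.4 CPM (−0.67 ± 0.10, adjusted p = 0.00250).

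Stra8, Aqp3 and Aurkc were among the rises with the smallest p-values. Stra8, the RA-induced gene through which germ cells enter meiosis, at chr6:34897098-34916279, was at 2.53 to 3.61 CPM before RA, at 31.1, 32.4, 27.2 and 26.6 CPM at 3 h and at 62.6, 63.2, 55.01 and 54.3 CPM at 6 h. The 4 libraries of each time were close together and the times were far apart (1.00 ± 0.052 (SE), adjusted p = 9.86e-08). Aqp3, a water and glycerol channel, went from 32.3, 30.3, 27.7 and 27.8 CPM to 55.3, 59.8, 51.2 and 57.04 CPM (0.92 ± 0.060, adjusted p = 1.46e-06). Aurkc, the Aurora kinase known for its part in meiosis, went from 8.64, 8.904, 6.37 and 6.499 CPM to 15.03, 15.5, 13.2 and 13.5 CPM (0.92 ± 0.092, adjusted p = 7.48e-05). In both the −IAA libraries were above the +IAA libraries at 3 h, and the times did not overlap. Stra8 was the only one of 11 tested germline and Stra genes that was called. Greb1l, a paralog of the estrogen-regulated gene Greb1, was at 3.56, 4.003, 6.64 and 5.44 CPM and then at 10.95, 12.6, 10.9 and 12.8 CPM (1.29 ± 0.14, adjusted p = 2.14e-04). It had the largest rise of the genes named by rule, with the −IAA libraries the lower ones at 3 h and the arms level at 6 h.

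Further genes that rose had lower levels or smaller steps. Dusp9, a phosphatase of MAP kinases encoded on the X chromosome, went from 94.6, 109, 84.6 and 87.4 CPM to 135, 145, 128 and 124 CPM (0.50 ± 0.050, adjusted p = 7.48e-05). Tmtc1, a mannosyltransferase of the endoplasmic reticulum, went from 57.97, 67.5, 63.2 and 63.1 CPM to 90.9, 98.95, 89.97 and 96.5 CPM (0.58 ± 0.054, adjusted p = 5.6e-05). Smyd2, a lysine methyltransferase, went from 34.7, 32.9, 31.8 and 30.5 CPM to 50.4, 48.1, 47.5 and 48.6 CPM (0.58 ± 0.057, adjusted p = 7.43e-05). For these 3 genes the 8 libraries fell into separate ranges by time. Csn3, the gene of κ-casein, was at 1.96, 1.53, 1.32 and 1.71 CPM and then at 3.33, 3.23, 3.08 and 5.18 CPM (1.18 ± 0.22, adjusted p = 0.00907), and +IAA replicate 2 stood above the other 6 h libraries. Ankrd44, a regulatory subunit of protein phosphatase 6, was at 2.77, 3.92, 2.07 and 2.68 CPM and then at 6.18, 7.96, 5.65 and 5.02 CPM (1.12 ± 0.16, adjusted p = 0.0015). Cemip, which takes part in hyaluronan turnover, was at 1.22, 1.43, 1.597 and 0.775 CPM and then at 4.17, 4.14, 1.92 and 1.82 CPM (1.16 ± 0.26, adjusted p = 0.0350), and the 6 h values split by arm with the −IAA libraries the higher. Mpp2, a membrane-associated scaffold, was at 1.34, 1.59, 2.09 and 1.53 CPM and then at 3.18, 3.97, 3.08 and 2.44 CPM (0.94 ± 0.21, adjusted p = 0.0336). Its range before RA was 1.61 to 3.82 CPM, and the first step was not called (−0.55, adjusted p = 0.286). With 1 library left out, Cemip kept its call only without +IAA 3 h replicate 1, +IAA 6 h replicate 1 or +IAA 6 h replicate 2 (adjusted p up to 0.106) and Mpp2 only without +IAA 3 h replicate 1 or +IAA 6 h replicate 2 (adjusted p up to 0.118), and the fit of 12 libraries did not call Cemip (adjusted p = 0.0594).

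Among the 30 lists the formative markers had the largest share of members that fell. Of 15 tested, 6 fell, against 1.11% of all genes tested, and 1 rose, with a median of −0.25. Otx2, a homeobox factor of the formative epiblast, had dropped from 35.2 to 44.5 CPM to 8.08, 9.62, 7.91 and 9.74 CPM in the first 3 h (−2.22, adjusted p = 1.93e-09) and was at 5.43, 3.502, 3.196 and 4.26 CPM at 6 h (−1.12 ± 0.16 (SE), adjusted p = 0.0015). Every 6 h library was below every 3 h library. Lef1, the Wnt effector, was at 27.02 to 38.4 CPM before RA, at 13.6, 24.4, 16.4 and 15.6 CPM at 3 h and at 6.98, 8.91, 5.88 and 5.62 CPM at 6 h (−1.36 ± 0.15, adjusted p = 1.68e-04). Apart from Rsc1a1, this was the largest fall among the genes named by rule, and −IAA replicate 2 was the highest library at both times. Of the others, Fgf5, Pou3f1 and Dnmt3b were named after their values were seen. Pou3f1, a POU-domain factor, was at 30.99, 49.2, 31.2 and 36.2 CPM and then at 26.4, 27.2, 23.3 and 23.1 CPM (−0.56 ± 0.10, adjusted p = 0.0108). Dnmt3b, a de novo DNA methyltransferase, was at 344, 447, 367 and 375 CPM and then at 337, 319, 301 and 271 CPM (−0.32 ± 0.062, adjusted p = 0.0136). Fgf5, a classical marker of the post-implantation epiblast, was near 4.21 CPM on average before RA, at 0.993, 2.33, 1.38 and 1.69 CPM at 3 h and at 0.706, 0.623, 0.247 and 0.661 CPM at 6 h (−1.53 ± 0.36, adjusted p = 0.0434). The times were apart by a narrow margin for Dnmt3b and more widely for Pou3f1 and Fgf5. Fgf5 kept its call only without −IAA 3 h replicate 1 (adjusted p up to 0.198). Dnmt3b lost its call without +IAA 6 h replicate 2 (adjusted p = 0.0654) and in the fit of 12 libraries (adjusted p = 0.0513).

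**Figure D3:**
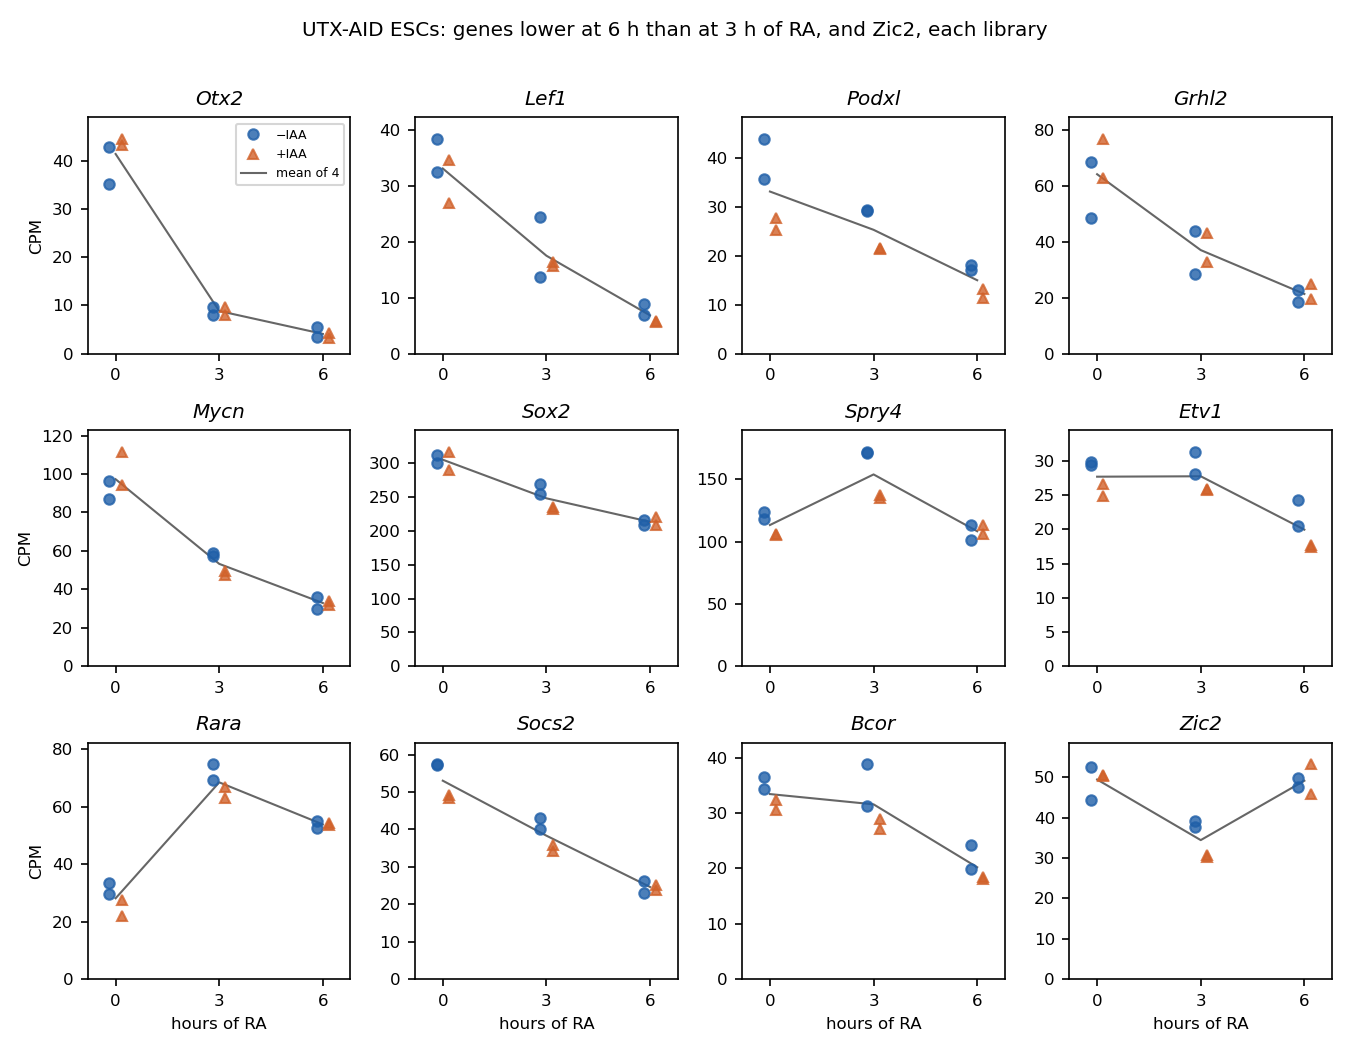
Level in CPM (y axis, starting at 0) at 0, 3 and 6 h of RA (x axis) for 11 genes lower at 6 h than at 3 h in UTX-AID ESCs, and for Zic2, which was higher. Blue circles are −IAA and orange triangles +IAA libraries, 2 of each per time, and the grey line joins the means of 4. Otx2, Lef1, Grhl2 and Mycn descend over both steps, Spry4 and Rara first rise and then fall, and Zic2 first falls and then returns.

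Pluripotency factors had smaller median steps. Of 23 tested, 4 fell, against 1.11% of all genes tested, and 0 rose. The log2 fold change was below 0 for 17, with a median of −0.070. Sox2, a core factor, was at 289.7 to 317 CPM before RA, at 254, 269.6, 232 and 236 CPM at 3 h and at 208, 216, 208 and 221 CPM at 6 h (−0.22 ± 0.046, adjusted p = 0.0249). The times were apart, and the +IAA libraries were the lower ones at 3 h. Nr5a2, an orphan receptor that binds the Pou5f1 promoter, was at 31.9, 28.1, 21.7 and 22.4 CPM and then at 21.5, 19.5, 19.2 and 15.2 CPM (−0.46 ± 0.087, adjusted p = 0.0127), and Sall4, a zinc finger factor, at 157, 155, 149.6 and 148 CPM and then at 134, 126, 129 and 129 CPM (−0.23 ± 0.042, adjusted p = 0.00853). Gbx2, the remaining member, went from 31.6, 31.0, 30.4 and 30.2 CPM to 27.3, 25.4, 24.4 and 26.1 CPM (−0.26 ± 0.062, adjusted p = 0.0475) and was not called in any of the 8 fits that left out 1 library (adjusted p up to 0.157). The Sox2 call was lost without +IAA 6 h replicate 1, −IAA 3 h replicate 1, −IAA 3 h replicate 2, −IAA 6 h replicate 1 and −IAA 6 h replicate 2 (adjusted p up to 0.0847), and that of Nr5a2 without +IAA 6 h replicate 2 and −IAA 6 h replicate 2 (adjusted p up to 0.0557). Of 14 LIF and STAT3 targets 1 fell. This was Socs2, an inhibitor of cytokine signalling, at 43.1, 40.05, 34.2 and 35.9 CPM and then at 23.1, 26.3, 23.8 and 25.2 CPM without overlap (−0.63 ± 0.072, adjusted p = 2.48e-04), and the other 13 gave no call.

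The ERK list, which holds inhibitors such as the Spry and Dusp genes and also Etv factors, FGF ligands and FGF receptors, leaned downwards. Dusp9, a MAP kinase phosphatase outside this list, rose (0.50). Of 19 tested, 5 fell, against 1.11% of all genes tested, and 0 rose. The log2 fold change was below 0 for 18, and the median was −0.15, against 0.00046 over all genes tested. Spry4, an inhibitor of receptor tyrosine kinase signalling, had risen from 106 to 124 CPM before RA to 171, 172, 138 and 135 CPM at 3 h and was at 113, 101, 113 and 106 CPM at 6 h (−0.50 ± 0.068 (SE), adjusted p = 0.00107). The 6 h libraries were in or just under the range of the untreated cells, and the 3 h libraries of the −IAA arm stood above those of the +IAA arm. Spry2, of the same family, was at 41.8, 41.6, 32.6 and 35.2 CPM and then at 29.9, 32.4, 26.95 and 26.3 CPM (−0.39 ± 0.059, adjusted p = 0.00250), and Etv1, an ETS factor induced by FGF signalling, at 31.3, 28.1, 25.8 and 25.7 CPM and then at 24.2, 20.5, 17.4 and 17.7 CPM (−0.48 ± 0.076, adjusted p = 0.00297). For both, every 6 h library was below every 3 h library. Dusp4, a nuclear MAP kinase phosphatase, went from 14.1 to 17.3 CPM to 8.37 to 13.4 CPM (−0.52 ± 0.12, adjusted p = 0.0400), and Etv5 from 245 to 263 CPM to 211 to 234 CPM (−0.18 ± 0.044, adjusted p = 0.0478), both named after their values were seen. Etv5 kept its call only without −IAA 6 h replicate 1 (adjusted p up to 0.173), and lost it when GC content and length were corrected for (adjusted p = 0.0538). Dusp4 kept its call only without +IAA 3 h replicate 2 or +IAA 6 h replicate 1 (adjusted p up to 0.126). Mycn was the 1 called gene of 21 immediate early genes. It is a MYC family factor abundant in ESCs, and it was at 87.1 to 112 CPM before RA, at 57.3, 58.9, 47.4 and 49.5 CPM at 3 h and at 36.2, 29.7, 33.9 and 31.9 CPM at 6 h (−0.69 ± 0.074, adjusted p = 1.63e-04), descending over both steps.

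Of the ligand pathways, the Nodal, BMP and Wnt lists each gave 1 or 2 calls. Nodal, the TGFβ family ligand of the epiblast, had risen from 27.1 to 30.5 CPM to 50.8, 46.9, 39.6 and 44.4 CPM and was at 36.97, 37.01, 37.2 and 38.1 CPM at 6 h (−0.28 ± 0.067, adjusted p = 0.0474), the only call of 13. Id2, a helix-loop-helix inhibitor downstream of BMP and the only call of 13 in its list, went the other way, from 9.16 to 14.4 CPM before RA to 6.65, 7.48, 5.1 and 5.92 CPM and then 8.697, 10.9, 7.91 and 11.3 CPM (0.64 ± 0.14, adjusted p = 0.0285). Sfrp1, a secreted Wnt antagonist, was at 31.1, 24.6, 16.9 and 19.6 CPM and then at 17.4, 16.7, 13.7 and 13.1 CPM with overlapping groups (−0.58 ± 0.095, adjusted p = 0.00396), and together with Lef1 made the 2 falls among 16 Wnt pathway genes. The Nodal call was kept only without +IAA 3 h replicate 1 (adjusted p up to 0.148), and that of Id2 was lost without +IAA 3 h replicate 1, +IAA 3 h replicate 2, +IAA 6 h replicate 2 and −IAA 6 h replicate 2 (adjusted p up to 0.109).

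Zic2 and Id2 fell in the first 3 h and rose in the second. Zic2, a zinc finger factor counted among the formative markers, was at 44.5 to 52.5 CPM before RA, at 39.1, 37.7, 30.8 and 30.3 CPM at 3 h and at 49.9, 47.7, 45.96 and 53.2 CPM at 6 h (0.52 ± 0.077 (SE), adjusted p = 0.00192). Its first step was −0.52 (adjusted p = 5.57e-04), and that of Id2 −0.85 (adjusted p = 1.37e-04). The neighbour of Zic2, Zic5, of the neural list, had no call in the first step (−0.24, adjusted p = 0.0569) and was at 18.9 to 20.3 CPM, then 17.2, 16.7, 15.7 and 15.7 CPM and then 24.9, 26.7, 20.7 and 25.4 CPM (0.58 ± 0.078, adjusted p = 9.56e-04). In both genes the 3 h libraries lay below all others. Zic5 and Nefl were the 2 calls of 20 neural genes. Nefl, the light neurofilament, fell from 19.6, 19.5, 15.4 and 13.2 CPM to 12.7, 10.96, 11.05 and 9.05 CPM (−0.62 ± 0.099, adjusted p = 0.00321).

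Grhl2 and Podxl were among the 12 falls named by size. Grhl2, a factor that drives epithelial genes, was at 48.6 to 76.7 CPM before RA, at 28.4, 43.99, 32.6 and 42.99 CPM at 3 h and at 18.6, 22.6, 19.4 and 24.8 CPM at 6 h (−0.79 ± 0.12, adjusted p = 0.00287). Podxl, the surface sialomucin podocalyxin, was at 29.1, 29.3, 21.5 and 21.3 CPM and then at 17.2, 18.1, 13.3 and 11.4 CPM (−0.76 ± 0.072, adjusted p = 6.51e-05). In both all 6 h libraries lay below all 3 h libraries, and Podxl was lower in the +IAA arm at each time. Epcam, an adhesion molecule of epithelia and ESCs, went from 127, 127, 131 and 138 CPM to 110.1, 112, 118 and 107 CPM (−0.22 ± 0.045, adjusted p = 0.0188), the 1 call among 21 adhesion and cytoskeleton genes, and lost it without +IAA 3 h replicate 1, +IAA 3 h replicate 2 and +IAA 6 h replicate 2 (adjusted p up to 0.0986). Lamb1, a laminin chain, was at 28.6 to 45.7 CPM and 26.2 to 38.6 CPM (−0.21 ± 0.057, adjusted p = 0.0819), and of 17 tested endoderm factors edgeR called 0. DESeq2 called Lamb1 lower (−0.21, adjusted p = 0.0307). Gata4, the study's negative control, was low at both times, at 0.477 to 1.09 CPM and 0.552 to 1.095 CPM (0.043 ± 0.39, adjusted p = 0.986), and Lama1 was at 27.2 to 31.8 CPM and 26.6 to 29.8 CPM (−0.0052 ± 0.064, adjusted p = 0.991).

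Pde1b, Insyn2b, Slc27a2 and Ctxn3 were named by the size of their fall, and Mcf2 and Bnc2 by their p-values. Mcf2, a guanine nucleotide exchange factor, was at 40.2, 43.5, 37.8 and 36.9 CPM and then at 27.4, 28.0, 22.7 and 23.2 CPM (−0.65 ± 0.059, adjusted p = 5.07e-05). Bnc2, a zinc finger protein, was at 48.96, 45.8, 43.2 and 47.4 CPM and then at 30.2, 32.3, 26.8 and 29.8 CPM (−0.64 ± 0.063, adjusted p = 7.43e-05), and Pde1b, a calmodulin-dependent phosphodiesterase, at 16, 18.7, 13.5 and 13.8 CPM and then at 11.4, 10.2, 9.701 and 6.98 CPM (−0.70 ± 0.11, adjusted p = 0.00219). The times did not overlap for any of the 3. The first 3 h had left Mcf2 (−0.15, adjusted p = 0.116), Bnc2 (0.12, adjusted p = 0.312) and Pde1b (−0.27, adjusted p = 0.117) without a call. Insyn2b, a factor of inhibitory synapses, went from 7.23 to 8.49 CPM to 3.62 to 5.098 CPM (−0.90 ± 0.13, adjusted p = 0.00132), Slc27a2, a fatty acid transporter, from 7.94 to 11.5 CPM to 5.03 to 7.11 CPM (−0.71 ± 0.13, adjusted p = 0.00741), and Ctxn3 from 2.81 to 3.98 CPM to 1.51 to 2.37 CPM (−0.86 ± 0.17, adjusted p = 0.0143). Insyn2b lies inside Dock2 on the other strand, and Ctxn3 lost its call without −IAA 6 h replicate 1 (adjusted p = 0.0510). Bend3, a repressor with BEN domains (80.1 to 92.2 CPM, then 60.3 to 65.5 CPM, −0.43 ± 0.046, adjusted p = 1.63e-04), and Slc7a3, a carrier of cationic amino acids (242 to 261 CPM, then 199 to 204 CPM, −0.34 ± 0.038, adjusted p = 2.21e-04), were likewise named by their p-values.

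The remaining 4 falls named by size had low levels or narrow margins. Rtn1, a reticulon, was at 2.702, 1.96, 2.83 and 1.49 CPM and then at 1.35, 0.778, 0.590 and 0.950 CPM (−1.31 ± 0.29, adjusted p = 0.0320), and Slc40a1, the iron exporter ferroportin, at 2.59, 1.96, 2.92 and 2.68 CPM and then at 0.861, 1.75, 1.06 and 1.16 CPM (−1.06 ± 0.25, adjusted p = 0.0401). Pcdh8, a protocadherin, was at 1.96, 3.06, 1.83 and 1.61 CPM and then at 1.41, 1.09, 0.799 and 0.950 CPM (−0.99 ± 0.23, adjusted p = 0.0420), and Cachd1, a membrane protein, at 6.05, 7.43, 6.97 and 8.57 CPM and then at 5.01, 5.78, 2.97 and 3.88 CPM (−0.75 ± 0.18, adjusted p = 0.0445). The times did not overlap in any of them, by margins below 1 CPM. With 1 library left out, Rtn1 kept its call only without −IAA 3 h replicate 2, −IAA 6 h replicate 1 or +IAA 3 h replicate 2 (adjusted p up to 0.137), Slc40a1 only without −IAA 3 h replicate 2 or −IAA 6 h replicate 2 (up to 0.129), Pcdh8 only without −IAA 3 h replicate 1 (up to 0.178) and Cachd1 only without −IAA 3 h replicate 1 or −IAA 6 h replicate 2 (up to 0.142).

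Of the lists of Polycomb subunits and of UTX, JMJD3 and the MLL3/4 complex, only the Polycomb list held calls. The called genes Smyd2, Bend3 and Dnmt3b, named above, are on neither. Of 39 Polycomb subunits, 1 rose and 3 fell, 4 in all, against 1.89% of all genes tested. Bcor, a subunit of the noncanonical complex PRC1.1, was at 38.8, 31.4, 28.99 and 27.2 CPM and then at 24.2, 19.96, 18.5 and 18.1 CPM (−0.64 ± 0.085, adjusted p = 9.03e-04), and Kdm2b, which brings that complex to unmethylated CpG islands, at 92.7, 109, 84.3 and 93.7 CPM and then at 82.9, 80.2, 69.2 and 73.5 CPM (−0.31 ± 0.056, adjusted p = 0.00710). In both every 6 h library was below every 3 h library, with the −IAA libraries the higher ones of their time on average. Mtf2, an accessory subunit of PRC2, went from 807 to 853 CPM to 881 to 961 CPM (0.14 ± 0.034, adjusted p = 0.0470), and Jarid2, another PRC2 accessory subunit named after its value was seen, from 686 to 746 CPM to 614 to 665 CPM (−0.15 ± 0.037, adjusted p = 0.0478). Mtf2 kept its call only without −IAA 6 h replicate 1 (adjusted p up to 0.153), and Jarid2 only without +IAA 6 h replicate 1 (adjusted p up to 0.178). The correction for GC content and length also ended the call of Jarid2 (adjusted p = 0.0890). Of 13 genes of UTX, JMJD3 and the MLL3/4 complex 0 were called. Kdm6b, the gene of JMJD3, had risen in the first 3 h (0.81 on the log2 scale, adjusted p = 2.05e-06) and stood at 72.4 to 84.6 CPM and 74.8 to 87.01 CPM (0.041 ± 0.061, adjusted p = 0.883), Ash2l at 858 to 915 CPM and 817 to 895 CPM (−0.065 ± 0.033, adjusted p = 0.485), and Dpy30 at 232 to 268 CPM and 226 to 247 CPM (−0.093 ± 0.042, adjusted p = 0.403).

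In the stress, metabolic and cell cycle lists the called steps were small. All of these calls were rises, against 0.779% of all genes tested. Of 16 tested genes of the unfolded protein response and heat shock 2 rose, Hspa5, the endoplasmic reticulum chaperone BiP, from 1205 to 1528 CPM to 1435 to 1717 CPM (0.22 ± 0.039, adjusted p = 0.00667), and Calr, calreticulin, from 920.5 to 1114 CPM to 1069.5 to 1267 CPM (0.22 ± 0.033, adjusted p = 0.00196). In both genes the times overlapped and at each time the +IAA libraries were above the −IAA libraries. Of 18 hypoxia and glycolysis genes 2 rose, Slc2a1, the glucose transporter GLUT1, from 378 to 454 CPM to 465 to 519.8 CPM (0.24 ± 0.038, adjusted p = 0.00321) and P4ha1, a collagen prolyl hydroxylase, from 24.2 to 32.2 CPM to 30.3 to 35.6 CPM (0.28 ± 0.066, adjusted p = 0.0423). Of 20 DNA replication genes 2 rose, the origin licensing factor Cdc6 from 108 to 132 CPM to 129 to 144 CPM (0.21 ± 0.047, adjusted p = 0.0383) and Cdc45 from 65.1 to 70.8 CPM to 74.97 to 78.7 CPM (0.20 ± 0.048, adjusted p = 0.0438), and of 14 p53 targets 1, Sesn1, from 29.98 to 33.6 CPM to 37.3 to 43.1 CPM (0.29 ± 0.067, adjusted p = 0.0380). With 1 library left out, Cdc45 was called in none of the 8 fits (adjusted p up to 0.165), P4ha1 only without +IAA 3 h replicate 2 (up to 0.173), Cdc6 only without +IAA 3 h replicate 2 or +IAA 6 h replicate 1 (up to 0.126) and Sesn1 only without −IAA 3 h replicate 1, −IAA 6 h replicate 1 or +IAA 3 h replicate 1 (up to 0.128). The lists of mitosis (20 genes), cholesterol synthesis (24), the integrated stress response (16) and targets of the aryl hydrocarbon receptor (6) held 0 calls. Their most abundant members were at overlapping levels at both times, with Top2a at 1222 to 1405 CPM and 1311 to 1459 CPM, Ccnb1 at 749.6 to 855 CPM and 765 to 842 CPM, Hmgcs1 at 377 to 492 CPM and 381 to 413 CPM, Msmo1 at 154 to 209 CPM and 163 to 170.0 CPM, Asns at 338 to 415 CPM and 335 to 397 CPM, and Psat1 at 336 to 379.8 CPM and 331 to 376 CPM. Tiparp and Nqo1, which respond to the aryl hydrocarbon receptor, had log2 differences of −0.11 ± 0.044 and −0.14 ± 0.049, and their levels separated by arm. Nqo1 was at 68.3, 63.1, 93.7 and 88.3 CPM at 3 h and at 59.2, 60.6, 82.1 and 82.2 CPM at 6 h. Within each arm, its 6 h libraries also lay below its 3 h libraries.

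**Figure D4:**
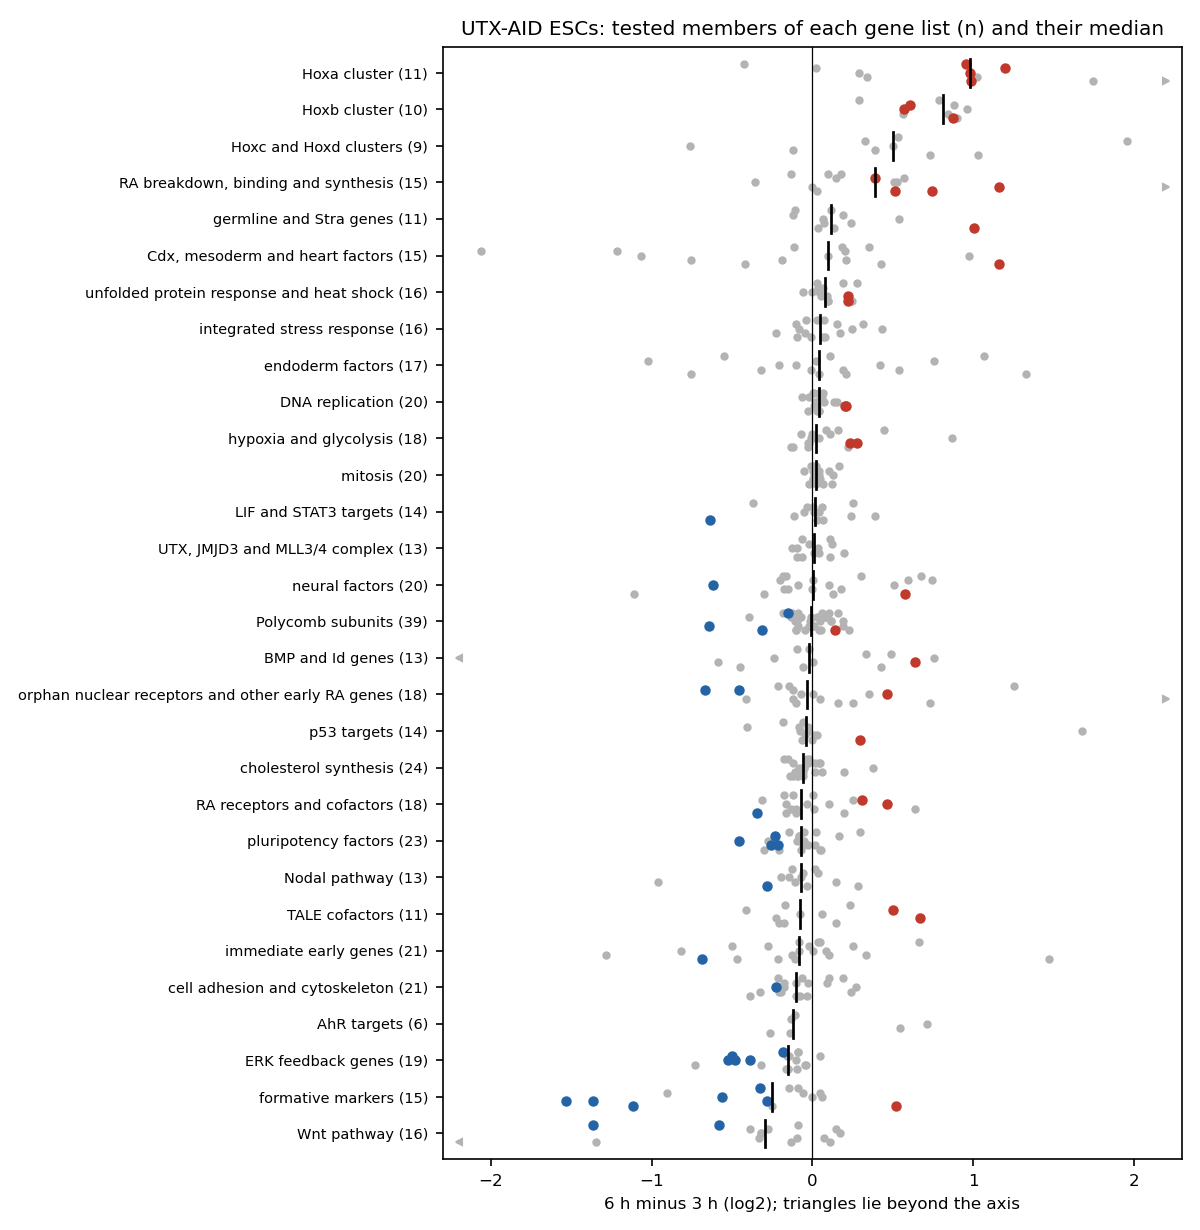
Change from 3 h to 6 h of RA (x axis, log2) for every tested member of the 30 gene lists in UTX-AID ESCs, ordered by list median (black bar), with the number tested in parentheses. Red and blue points were called higher and lower, grey points were not called, and 5 uncalled members beyond the axis are drawn as triangles. The Hoxa and Hoxb lists lie highest, at medians of 0.98 and 0.81, followed by the Hoxc and Hoxd list (0.50, with 0 calls) and the RA breakdown list (0.39), and the Wnt, formative and ERK lists lie lowest.

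The step was next read in each arm, which asks whether cells depleted of UTX went through it in the same way. Without IAA, 21 genes were higher and 35 lower of 15908 tested (0.132% and 0.22%), and with IAA 27 and 22 (0.17% and 0.138%). DESeq2 called 97 and 128 without IAA and 58 and 64 with IAA, and without the filter on low counts edgeR called 71 and 112, and 58 and 59, so that which arm had more higher genes turned with the setting. The difference between the arms was called for 0 genes in edgeR's quasi-likelihood test. At an unadjusted p under 0.05, 614 genes differed (3.86%), and the smallest adjusted p was 0.0648. DESeq2 called 5 genes. The 124 higher genes had a median log2 step of 0.40 without and 0.43 with IAA, and the 177 lower genes −0.40 and −0.34, but these genes were chosen on the same libraries. List medians without and with IAA were 0.50 and 1.05 for Hoxb, 0.77 and 1.015 for Hoxa, and 0.26 and 0.53 for the retinoid list. For the ERK and formative lists the steps were smaller with IAA (−0.20 and −0.12, −0.27 and −0.22). Differences between list medians were not tested. For Cyp26a1 the log2 steps without and with IAA were 0.69 and 0.80 (difference 0.11 ± 0.12), for Hoxb1 0.66 and 1.08 (0.42 ± 0.24), and for Stra8 0.98 and 1.03 (0.044 ± 0.10). Spry4, the gene with a high 3 h level in the −IAA arm, had steps of −0.68 and −0.31 (0.37 ± 0.10, adjusted p = 1.00). The median standard error of the arm difference was 0.14 for the 124 genes. The Spry4 difference, well above its standard error, was not called. Arm differences well above 0.14 on the log2 scale could therefore go uncalled with 2 libraries per arm and time. The p-values do not show that the arms acted alike.

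The BAP1-AID ESCs, tagged at the C terminus of BAP1 and sampled in the same arms and times, give 8 libraries that did not enter the fit above. In them 417 of 15309 genes tested were higher at 6 h (2.72%) and 383 were lower (2.5%). Of the 124 genes higher in UTX-AID, 123 were tested there, all 123 had the same sign, and 82 were called higher (66.7%), which is 19.8% of the 413 genes higher in BAP1-AID that were tested in both. By list, BAP1-AID had 6 of 9 Hoxa, 8 of 10 Hoxb and 6 of 14 retinoid breakdown, binding and synthesis genes higher, and 8 of 15 formative markers lower. It also had 1 retinoid gene lower and 1 formative marker higher. Of the 177 lower genes, 170 had the same sign, 100 were called lower (56.5%, and 26.1% of the 383), and 1 was called higher. Over all 14895 genes tested in both clones the steps had a Pearson correlation of 0.16, and over the 9833 genes with a mean above 5 CPM one of 0.36. These are correlations across genes, which are not independent replicates. The step followed GC content in BAP1-AID (Spearman correlation −0.417 across 11039 genes) and hardly in UTX-AID (−0.058). With GC content and length corrected for, 288 of the 301 UTX-AID calls held, and 7 genes in place of 5 differed between the clones. The shared calls were not counted again under this correction. Cyp26a1 rose by 0.87 ± 0.047 (adjusted p = 5.49e-06) in BAP1-AID and Hoxb1 by 1.21 ± 0.099 (adjusted p = 7.28e-05). Otx2 and Lef1 changed by −0.78 (adjusted p = 9.9e-04) and −0.87 (adjusted p = 5.5e-05). Sox2, Nr5a2, Spry2, Etv1, Mpp2 and Rtn1, each called in UTX-AID, gave −0.074, −0.025, −0.075, −0.14, 0.13 and −0.23 in BAP1-AID, with adjusted p-values of 0.599, 0.915, 0.621, 0.322, 0.855 and 0.46, and their difference between the clones did not pass the test.

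**Figure D5:**
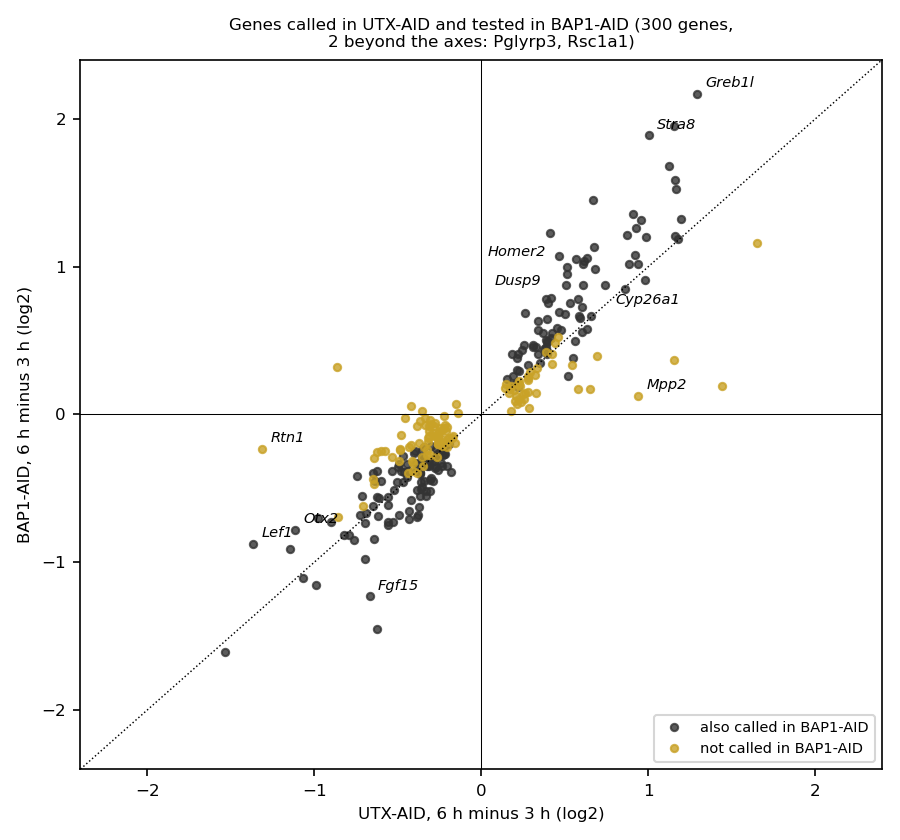
Change from 3 h to 6 h of RA in UTX-AID (x axis, log2) and BAP1-AID ESCs (y axis, log2) for the 300 genes called in UTX-AID and tested in both, 2 of them (Pglyrp3 and Rsc1a1) beyond the axes. Dark points were called in BAP1-AID too, yellow points were not, and the dotted line marks equal change. Most points lie in the quadrants of equal sign, and Stra8 and Greb1l lie above the dotted line.

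The difference between the clones was called for 5 of 16467 genes (0.0304%), all of them with a lower step in UTX-AID. The count depended on the fit, with 66 genes in DESeq2, 18 with all 24 libraries, 9 with the replicate number as a block, 8 without the filter on low counts and 2 to 9 with 1 UTX-AID library left out. It fell to 2 without +IAA 6 h replicate 1 or replicate 2, and rose to 9 without −IAA 3 h replicate 1 and to 8 without −IAA 6 h replicate 2. Stra8 was at 28.4, 31.5, 34.4 and 36.1 CPM at 3 h and at 107, 112, 132 and 132 CPM at 6 h in BAP1-AID, so that the clones overlapped at 3 h and BAP1-AID was the higher at 6 h. The UTX-AID step minus the BAP1-AID step was −0.88 ± 0.072 (SE), adjusted p = 3.66e-06. The call held without each of the 8 UTX-AID libraries (adjusted p up to 2.8e-05). Homer2, a synaptic scaffold, was at 9.88, 11.5, 10.6 and 11.3 CPM and 13.99, 16.6, 14.4 and 14.7 CPM in UTX-AID and at 28.4, 26.5, 40.1 and 37.3 CPM and 61.2, 57.4, 78.6 and 78.5 CPM in BAP1-AID (−0.60 ± 0.094 (SE), adjusted p = 0.0193). Dock6, an activator of Rac and Cdc42, was at 118, 110.4, 110.5 and 111 CPM and 124, 111, 117 and 115 CPM in UTX-AID, with no call, and at 124, 120.2, 117 and 115 CPM and 175, 170.4, 166 and 160.5 CPM in BAP1-AID (−0.44 ± 0.070 (SE), adjusted p = 0.0193). Actn3, an actinin of muscle, was at 25.03, 26.7, 29.7 and 27.6 CPM and 31.2, 31.1, 32.4 and 30.4 CPM in UTX-AID and at 46.4, 41.8, 42.8 and 41.2 CPM and 81.7, 79.7, 61.9 and 67.1 CPM in BAP1-AID (−0.55 ± 0.090 (SE), adjusted p = 0.0273). In all 3 the BAP1-AID libraries separated by time more widely, and Homer2 and Actn3 were lower in UTX-AID at both times. With 1 UTX-AID library left out, Homer2 lost the call without +IAA 3 h replicate 1, +IAA 3 h replicate 2, +IAA 6 h replicate 1, +IAA 6 h replicate 2, −IAA 3 h replicate 2 and −IAA 6 h replicate 1 (adjusted p up to 0.0802), Dock6 without +IAA 6 h replicate 1 and +IAA 6 h replicate 2 (up to 0.0789) and Actn3 without +IAA 3 h replicate 1, +IAA 3 h replicate 2, +IAA 6 h replicate 1, +IAA 6 h replicate 2, −IAA 3 h replicate 2 and −IAA 6 h replicate 1 (up to 0.111). Homer2 also lost it when GC content and length were corrected for (adjusted p = 0.0689) and with all 24 libraries in the fit (adjusted p = 0.136). Dusp9 and Greb1l rose more in BAP1-AID (0.88 and 2.17), but their differences of −0.36 ± 0.069 (SE), adjusted p = 0.0700 and −0.88 ± 0.16 (SE), adjusted p = 0.0675 did not pass the test. The fifth gene, Rsc1a1, is treated with the uncertain calls.

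By median, the higher genes were close to the tested genes in length and GC content, whereas the lower genes were longer. These differences were not tested. With lengths and GC content from GENCODE vM39, the 121 higher genes with a transcript had a median transcript length of 4120 bases, as did the 15351 tested genes, and the 176 lower genes 5190 bases. The median gene span was 25.3 kb for the higher, 50.5 kb for the lower and 24.2 kb for the tested genes. Median GC content was 49.7%, 50.9% and 49.6%. Called genes also had higher levels than tested genes, at a median of 33.6 CPM for the higher and 32.5 CPM for the lower genes against 12.6 CPM, which bears on the power to call them.

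Some calls are uncertain. Hba-a1, α-globin, was at 0 in all 3 h libraries and at 3.49, 0, 4.17 and 0.661 CPM at 6 h, so the times overlap at 0, and it shares nearly all its sequence with a second α-globin gene. Pglyrp3 was at 0.346, 0.0817, 0.581 and 0.338 CPM at 3 h and at 0 in all 6 h libraries, and −IAA replicate 2 of 3 h was near the floor. Gm14308 and Gm14430, zinc finger gene models of a family with near-identical copies, went from 1.08 to 1.79 CPM to 2.73 to 6.23 CPM and from 1.201 to 1.93 CPM to 2.63 to 4.65 CPM. Rsc1a1 was at 25.5, 38.7, 0.254 and 28.8 CPM at 3 h and at 1.7, 1.24, 1.83 and 0.785 CPM at 6 h (−3.97 ± 0.75 (SE), adjusted p = 0.0115). Of its 3 h libraries, +IAA replicate 1 was at 0.254 CPM and below the 6 h libraries, whereas the others were above them. In BAP1-AID the order was the opposite, with 1.79, 0.0584, 0.168 and 0.355 CPM at 3 h and 42.6, 35.8, 35.7 and 38.2 CPM at 6 h. RefSeq places Rsc1a1 inside the gene Ddi2, and the counting could assign reads to either. The call was lost without +IAA 3 h replicate 2 (adjusted p = 0.173). Adgrg5 and Casq2, the remaining genes past a log2 change of 1, were at 0.924, 0.899, 0.908 and 0.636 CPM and then 2.98, 1.95, 1.22 and 1.65 CPM, and at 6.605, 3.86, 5.01 and 2.94 CPM and then 3.33, 2.68, 1.86 and 0.909 CPM. Adgrg5 kept its call only without +IAA 3 h replicate 1 or +IAA 6 h replicate 1 (adjusted p up to 0.158) and Casq2 only without −IAA 3 h replicate 2 or −IAA 6 h replicate 1 (adjusted p up to 0.121). Of the 90 genes named by the rule, 33 overlap another gene of the table in mm39, among them Nefl with Nefm, Socs2, Otx2 and Zic2 with noncoding transcripts of the other strand, and Sox2 with Sox2ot. Since the strandedness of the libraries is not given in the sources used here, reads of such pairs cannot be told apart.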

How the data were processed

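Poly(A) RNA of mouse ESCs was sequenced in 24 libraries, 2 replicates for each of 12 groups. The authors aligned reads with HISAT2 2.2.1 to mm39, sorted them with SAMtools 1.19 and deposited a table of estimated counts for 26264 genes from StringTie 2.2.1, which derives counts from coverage, all whole numbers. Annotation and strandedness are not given in the sources used here. Counts were rounded (no value changed) and fitted with edgeR 4.0.16 (R 4.3.3; TMM, filterByExpr at 10 counts and a total of 15, quasi-likelihood test) on 8 libraries, with IAA arm and time as additive terms. A gene was called at a Benjamini-Hochberg adjusted p below 0.05. Errors are standard errors of the log2 fold change, and levels are CPM on TMM-scaled totals. The study's own test was DESeq2, run here (1.42.0) as an alternative, with RLE factors, no filter, a replicate block, GC and length offsets, all libraries of the clone, and 1 library left out. The fit was tested on simulated data. Named were the study's genes, per direction 12 genes by size (groups apart, at least 2 CPM, numbered gene models passed over) and 5 by p, up to 3 called members per list (2 by level where 0 were called), and genes called between arms or clones. The members and lists were chosen with earlier results of these data known. Some named genes are not reported here.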

Additional observations from a re-analysis of the deposited data

Results flagged for a closer look

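In 8 of the 90 genes named by the rule, 1 of the 4 libraries of a time stood apart from the other 3 by Dixon's criterion. Chance meets this criterion in about 1 in 20 groups, and each gene has a group at 3 h and a group at 6 h. These libraries are therefore not read as an excess over chance. The highest library was +IAA replicate 2 for Cdc45 at 3 h (70.8 CPM) and Csn3 at 6 h (5.18 CPM). It was −IAA replicate 2 for Hoxa5 at 6 h (13.3 CPM), Sesn1 at 6 h (43.1 CPM) and Lama1 at 3 h (31.8 CPM), and −IAA replicate 1 for Dock6 at 3 h (118 CPM). The lowest library was −IAA replicate 2 for Fgf15 at 6 h (14.2 CPM) and −IAA replicate 1 for Slc7a3 at 3 h (242 CPM).

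The step differed between the clones in the test of the difference itself for 5 genes in edgeR, and for 66 in DESeq2. UTX-AID minus BAP1-AID was −0.88 for Stra8 (edgeR, adjusted p = 3.66e-06), −10.03 for Rsc1a1 (adjusted p = 2.93e-04), −0.60 for Homer2 (adjusted p = 0.0193), −0.44 for Dock6 (adjusted p = 0.0193) and −0.55 for Actn3 (adjusted p = 0.0273) on the log2 scale.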

How the results depend on the processing

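DESeq2 called 212 genes higher and 308 lower, 97 and 128 without IAA, 58 and 64 with IAA, 5 between the arms, 721 and 686 in BAP1-AID and 66 between the clones. Without the filter on low counts there were 71 and 112 calls without IAA, 58 and 59 with IAA, 8 between the arms and 8 between the clones. Correlations of same-numbered libraries, as deviations from their group means, ran from 0.0749 to 0.233. All were positive and not all passed 0.1, so the main fit holds no replicate term. Whether same-numbered libraries share a culture or batch is not given by the labels, and these correlations cannot decide it. The replicate block gave 191 higher and 276 lower genes, 82 and 99 without IAA, 51 and 45 with IAA, 2 between the arms and 9 between the clones. The correction for GC content and length gave 34 higher genes without IAA, and all 24 libraries in the fit gave 18 between the clones. With 1 library left out, 65 to 103 genes were higher and 106 to 149 lower, 10 to 15 and 4 to 10 past a log2 change of 1, 0 to 7 differed between the arms and 2 to 9 between the clones. Where this left a group with 1 library, that library was assumed to vary like the others.

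Of the 301 calls, DESeq2 kept 298, RLE factors 299, no filter 300, the block 301, the GC and length correction 288, all 12 UTX-AID libraries 248 and the fits without 1 library 161 to 213, and 0 turned in sign in any of these. The 12-library fit also lost Pcdh8 (adjusted p = 0.0513), P4ha1 (0.0714), Cdc45 (0.0586), Rsc1a1 (0.0567), Homer2 (0.0840), Gbx2 (0.0905), Dhrs3 (0.0534) and Adgrg5 (0.140). The cause was not tested. Each group holds 2 libraries, which limits what could be called between the arms.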
